A study of Homo sapiens with 6 samples.

Results

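The genes described here encode the surface and secreted proteins through which promyelocytic leukaemia cells act on clotting and on the breakdown of clots. They are the 8 genes ANXA2, S100A10, PLAUR, PLAU, F3, THBD, TFPI and ANXA5, chosen by name from the 61806 genes of the deposited count table. All 8 were matched by Ensembl identifier, and all 8 passed the filter on low counts that left 19485 tested genes. The libraries came from NB4 cells, an established human line of acute promyelocytic leukaemia that carries the PML-RARA fusion, collected in logarithmic growth without any drug. In 3 libraries the cells had been transduced with a lentivirus to overexpress CD69, a leukocyte surface lectin, and 3 libraries came from control cells, which the series' design text calls vector controls and the genotype label calls wild-type. The design text speaks of biological replicates, but no source used here ties the libraries to separate transductions. The p-values below therefore describe the spread among these 6 libraries, and a group may be 1 transduced population.

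Clotting at a cell surface starts when tissue factor binds factor VII, and its product thrombin makes fibrin. Fibrin is dissolved by plasmin, which is released from plasminogen by the urokinase and tissue activators, most efficiently where plasminogen is held on a cell by receptors such as the complex of annexin A2 with S100A10. Patients with acute promyelocytic leukaemia are known for bleeding in which clotting and excess plasmin formation occur together, and annexin A2, its partner S100A10, the urokinase receptor and tissue factor on the leukaemic cells are among the proteins studied for it.

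Total counts per library lay between 51543550 and 57463020. CD69 itself rose by 0.33 on the log2 scale (SE 0.07, edgeR quasi-likelihood adjusted p = 0.0153), with 5505, 5587 and 4887 counts against 4502, 4644 and 3954. Of 10 promyelocyte markers all were tested, and 4 were called higher (PRTN3, ELANE, AZU1 and SRGN) and 1 lower (MS4A3). For this and the marker lists below, 14.2% of all tested genes were called higher and 9.94% lower. The serglycin gene SRGN was the most abundant promyelocyte marker, while MPO, the gene of myeloperoxidase, had only 52 to 81 control counts and 29 to 58 under CD69 overexpression. The promyelocyte markers summed to 2220 to 2465 CPM in single control libraries and to 3639 to 4165 CPM in overexpressing ones. Each list of another cell type summed to less in every library. This does not hold gene by gene. Summed over each list in single libraries, 10 monocyte markers reached 56.3 to 83.6 CPM (counts scaled to the library's size), 8 platelet markers 1.39 to 2.61 CPM, and 10 endothelial markers 81.9 to 95.9 CPM, most of it PECAM1, which myeloid cells also express. FCN1 was the highest monocyte marker by mean level over the 6 libraries, with group means of 19.2 and 41.4 CPM, and was called higher, as was 1 other of the 7 tested, while CCR2 was called lower (log2 fold change -1.92). CD14 was under 2 CPM in every library. VCAN had 18.4 to 22.0 CPM in the controls and overexpressing replicate 1 but 3.23 and 3.82 CPM in replicates 2 and 3, and CD14 had 1.87 to 1.91 CPM against 0.568 and 0.764 CPM. Of the platelet markers GP9 and TREML1 were at 0 throughout, and GP1BA, the highest, stood at 0.740 and 1.27 CPM. Overexpressing replicates 2 and 3 differed from the other libraries in 2 further marker lists as well, as given below with the genes concerned.

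Of the 8 genes, 2 were higher in the overexpressing cells, PLAUR and S100A10, and 2 were lower, ANXA2 and ANXA5, while PLAU, F3, THBD and TFPI did not pass the test. Over all tested genes 24.1% were called, 14.2% higher and 9.94% lower. Among the 4 called genes, the annexin A2 gene and the urokinase receptor gene changed most, in opposite directions. The calls of S100A10 and ANXA5 were small in size and were each lost under several alternatives, while those of ANXA2 and PLAUR held in all 17 alternatives.

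**Figure D1:**
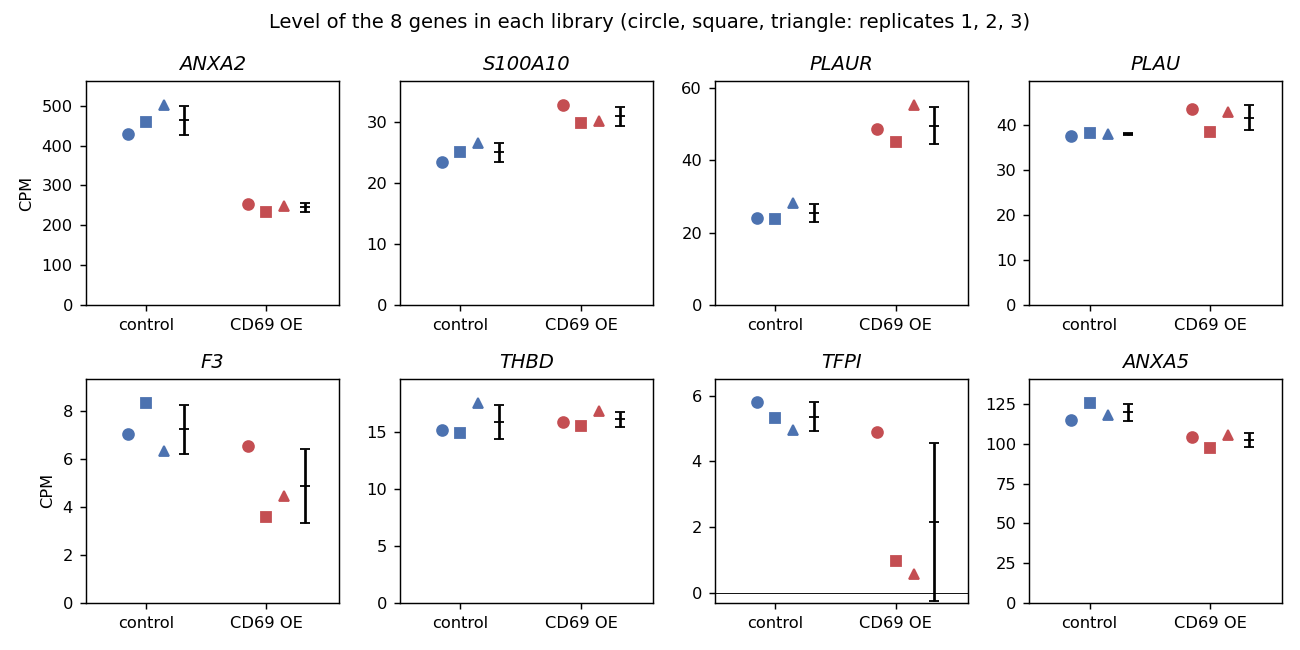
CPM of each gene in every library, with control libraries in blue and CD69-overexpressing libraries (CD69 OE) in red, and the black bar showing mean and SD (n = 3). The groups are apart for ANXA2, PLAUR, S100A10, ANXA5, PLAU and TFPI and overlap for F3 and THBD, and TFPI and F3 in overexpressing replicate 1 lie at or near the control values.

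ANXA2 (ENSG00000182718; GRCh38 chromosome 15, 60347134 to 60402883, minus strand) encodes annexin A2, the calcium- and phospholipid-binding chain of the plasminogen receptor. Control replicates 1, 2 and 3 held 429, 459 and 502 CPM, against 254, 233 and 249 CPM under CD69 overexpression. Every overexpressing library was below every control, and the 3 overexpressing libraries lay close together. The group levels were 463 ± 36.4 and 245 ± 11.2 CPM (SD, n = 3), a log2 fold change of -0.92 (SE 0.08, 95% interval -1.09 to -0.74), which left 52.9% of the control level (quasi-likelihood adjusted p = 0.000183). Over the 17 alternatives the log2 fold change stayed between -0.97 and -0.85.

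The reads of ANXA2 can be confused with those of its processed pseudogenes, copies of the spliced transcript elsewhere in the genome. ANXA2P2 on chromosome 9 (33624274 to 33625293, plus strand) had 1562, 1459 and 1495 counts as control values and 798, 656 and 714 under CD69 overexpression (log2 fold change -1.01, SE 0.11, quasi-likelihood adjusted p = 0.000534). In each library this was 5.00 to 6.50% of the ANXA2 counts. ANXA2P1 held 3 to 11 counts and ANXA2P3 held 0 in all libraries. Over the 1020 bases of ANXA2P2, 98.4% are identical to an ANXA2 transcript, with 16 differences, and 13.2% of the stretches as long as 1 read of 150 bases hold no difference at all. The count of ANXA2P2 is therefore uncertain, and whether its RNA fell apart from that of ANXA2 cannot be told from these counts. The stretch of 60 bases in which they differ most is shown, from GENCODE release 29, with its 5 differences in capitals. It spans bases 273 to 332 of the ANXA2 transcript and chr9:33624434-33624493 in the pseudogene.
ANXA2: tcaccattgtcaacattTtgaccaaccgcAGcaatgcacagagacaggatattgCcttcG
ANXA2P2: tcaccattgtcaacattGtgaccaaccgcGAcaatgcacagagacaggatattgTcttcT

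S100A10 (ENSG00000197747; chromosome 1, 151982915 to 151994390, minus strand) encodes the small partner of annexin A2, whose C-terminal lysines bind plasminogen. Control levels were 23.6, 25.1 and 26.7 CPM, and those under CD69 overexpression 32.8, 30.0 and 30.2 CPM. The groups did not overlap, but the gap between the highest control and the lowest overexpressing library was small. The log2 fold change was 0.30 (SE 0.08, 95% interval 0.11 to 0.50, quasi-likelihood adjusted p = 0.0352). The call was lost in 8 of 17 alternatives, among them each of the 5 that left out control replicate 1 or 2 or any 1 overexpressing library (adjusted p = 0.066 to 0.141), and the direction was upward in all 17.

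The partners changed in opposite directions. Per kb of merged exons, ANXA2 exceeded S100A10 by 3.18, 3.20 and 3.29 times in the controls, but by 1.35, 1.36 and 1.44 times under CD69 overexpression. A ratio within a library does not depend on its scaling, and this one did not overlap between the groups. The mean log2 ratio went from 1.69 ± 0.03 to 0.47 ± 0.05 (SD, n = 3), a difference of -1.22 that stayed between -1.25 and -1.20 when each library was left out. The exact two-sided permutation test gave p = 0.1, the smallest that 3 against 3 allows (0.15 adjusted over the 3 ratios tested). The merged exons of ANXA2 span 8824 bases and include retained introns, so the size of the ratio, unlike its change, depends on the annotation.

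PLAUR (ENSG00000011422; chromosome 19, 43646095 to 43670547, minus strand) encodes the urokinase receptor, which holds urokinase at the cell surface. The controls stood at 24.2, 23.8 and 28.2 CPM and the overexpressing libraries at 48.5, 45.0 and 55.2 CPM. All 3 overexpressing libraries were well above all 3 controls. The group levels were 25.4 ± 2.46 and 49.6 ± 5.21 CPM (SD, n = 3), a 1.95-fold rise (log2 fold change 0.96, SE 0.11, 95% interval 0.71 to 1.21, quasi-likelihood adjusted p = 0.000685). The 17 alternatives gave 0.88 to 1.05.

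PLAU (ENSG00000122861; chromosome 10, 73909177 to 73917497, plus strand) encodes urokinase itself, the ligand of that receptor. The controls gave 37.7, 38.2 and 38.1 CPM and the overexpressing libraries 43.7, 38.4 and 42.8 CPM. The controls were nearly equal and overexpressing replicate 2 lay just above them, so the groups did not overlap. The difference did not pass the test (log2 fold change 0.13, 95% interval -0.04 to 0.31, quasi-likelihood adjusted p = 0.252), and the interval leaves room for a rise of up to 0.31 on the log2 scale. PLAU shares 916 exon bases with C10orf55 on the opposite strand, so part of its count is uncertain, because no source used here says whether the counting used strand. Per kb of merged exons, PLAUR was 0.425, 0.412 and 0.491 times PLAU in the controls, against 0.735, 0.775 and 0.854 times under CD69 overexpression. That ratio did not overlap between the groups (difference of mean log2 ratios 0.83, exact two-sided permutation p = 0.1, the smallest possible here). Its size also depends on the annotation, with merged exons of 4457 bases for PLAUR and 2950 bases for PLAU.

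The starts of these genes are shown because the receptor genes moved in opposite directions. RefSeq windows of GRCh38.p14 were found for 7 of the 8 genes, with 2 windows for PLAU, and the 250 bases before each start were searched on both strands for TGANTCA (AP-1), GGGCGG (Sp1), GCGNGGGCG (EGR1), CACGTG (E-box) and AGGTCA (nuclear receptors). Capitals mark any match, and matches of different motifs may overlap.
ANXA2 promoter, chr15:60397987-60398236, minus strand: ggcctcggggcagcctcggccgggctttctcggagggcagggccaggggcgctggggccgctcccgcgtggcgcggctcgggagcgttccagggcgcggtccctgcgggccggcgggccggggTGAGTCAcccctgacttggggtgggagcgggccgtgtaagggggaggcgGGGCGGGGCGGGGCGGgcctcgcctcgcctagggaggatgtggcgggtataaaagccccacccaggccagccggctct
S100A10 promoter, chr1:151993860-151994109, minus strand: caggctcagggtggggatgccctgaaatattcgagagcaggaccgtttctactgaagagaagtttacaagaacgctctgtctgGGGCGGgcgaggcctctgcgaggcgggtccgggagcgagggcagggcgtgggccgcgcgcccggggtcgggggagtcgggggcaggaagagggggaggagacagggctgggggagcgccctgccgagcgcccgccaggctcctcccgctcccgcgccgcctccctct
PLAUR promoter, chr19:43670170-43670419, minus strand: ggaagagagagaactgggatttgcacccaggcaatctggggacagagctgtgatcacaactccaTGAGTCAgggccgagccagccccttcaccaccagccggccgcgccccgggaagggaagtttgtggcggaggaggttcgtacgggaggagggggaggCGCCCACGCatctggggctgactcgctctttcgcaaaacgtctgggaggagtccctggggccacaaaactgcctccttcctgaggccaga
The ANXA2 window held 1 AP-1 match and 3 overlapping Sp1 matches, that of PLAUR 1 AP-1 and 1 EGR1 match, and that of S100A10 1 Sp1 match. Over all 35116 windows of this length, 6.57% held an AP-1 match, 42.6% an Sp1 match and 8.41% an EGR1 match. The F3 window held 2 AP-1, 4 Sp1 and 1 EGR1 match and the TFPI window 1 AGGTCA match (12.1% of all windows). A match describes letters in the window and no binding was measured.

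F3 (ENSG00000117525; chromosome 1, 94529225 to 94541800, minus strand) encodes tissue factor, the starter of clotting. Its level was low, with 7.07, 8.36 and 6.34 CPM as control values and 6.57, 3.58 and 4.47 CPM under CD69 overexpression. Overexpressing replicate 1 lay within the range of the controls, and replicates 2 and 3 lay below it. The difference did not pass the test (log2 fold change -0.57, 95% interval -1.14 to -0.01, quasi-likelihood adjusted p = 0.133). Without overexpressing replicate 1 it did (-0.86, adjusted p = 0.024), and with replicate 1 alone against the controls, a single library whose own spread is unknown, the value was -0.14.

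TFPI (ENSG00000003436; chromosome 2, 187464230 to 187565760, minus strand), which encodes the inhibitor of tissue factor with factor VII, showed this split more sharply. The controls held 326, 301 and 278 counts, against 275, 54 and 29 for overexpressing replicates 1, 2 and 3, or 5.82, 5.31 and 4.96 CPM against 4.91, 0.958 and 0.568 CPM. Replicate 1 was just under the lowest control and replicates 2 and 3 were far below it. Over the 3 libraries of each group the log2 fold change was -1.32 (SE 0.70, quasi-likelihood adjusted p = 0.219). It was -2.81 without overexpressing replicate 1 (adjusted p = 0.000946) and -0.13 with replicate 1 alone, and limma-voom also called the fall (-1.91, adjusted p = 0.0443). Per kb of merged exons F3 exceeded TFPI by 4.95, 6.42 and 5.20 times in the controls, and by 5.45, 15.2 and 32.03 times in the overexpressing libraries (exact two-sided permutation p = 0.2 for the log2 ratio). The merged exons span 2875 bases for F3 and 11714 bases for TFPI, and their control means were 7.25 and 5.36 CPM. The size of this ratio, unlike its change, therefore depends on the annotation. TFPI shares 118 exon bases with a gene on the opposite strand.

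Other genes had a like split between libraries, among them some of the genes listed as fibroblast and epithelial markers. At least 2-fold lower in overexpressing replicates 2 and 3 than in each of the other 4 libraries (with 0.5 CPM added) were 154 of all tested genes (0.79%), and 1 of the 8 genes, TFPI. Of 72 other tested genes in lists for clotting, fibrinolysis, annexins, S100 proteins and phosphatidylserine exposure, 2 were, named here after their values were seen. The integrin chain ITGB3 had control values of 3.28 to 5.89 CPM, while overexpressing replicate 1 had 4.71 CPM and replicates 2 and 3 had 0.177 and 0.255 CPM. For ANXA3 these values were 4.34 to 6.84, 4.60, 0.763 and 0.607 CPM. The tissue plasminogen activator gene PLAT, also named after its values were seen, had control values of 4.75 to 7.39 CPM and 4.11, 0.905 and 2.15 CPM under overexpression. PLAT did not meet the 2-fold rule, and its value in overexpressing replicate 1 already lay below every control. None of these 3 was called over all 6 libraries. All 3 were called without overexpressing replicate 1. Naming them for low values in replicates 2 and 3 largely fixes that outcome, so it is no support.

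The epithelial keratin gene KRT8 had control values of 55.6 to 58.5 CPM, with 56.9 CPM for overexpressing replicate 1 and 14.3 and 11.3 CPM for replicates 2 and 3. For KRT18 these values were 23.8 to 28.3, 25.6, 4.70 and 5.33 CPM. Of the list of 10 fibroblast and epithelial markers, 8 were tested, and 3 of these had the 2-fold split, KRT8, KRT18 and COL1A2, while EPCAM was called lower. EPCAM, CDH1, COL3A1, KRT19 and COL1A1, named after their values were seen, did not have the 2-fold split and were not called without overexpressing replicate 1. Their log2 fold changes in that fit were -1.09, -0.50, 3.72, -0.85 and -0.59, in that order. With replicate 1 alone against the controls they were -0.96, -1.22, 1.08, 0.11 and -0.07. Summed over the list, the controls had 127, 141 and 132 CPM, overexpressing replicate 1 had 131 CPM and replicates 2 and 3 had 47.7 and 45.2 CPM. None of its 10 genes was at 0 in every library, and 1 was under 1 CPM throughout. The 8 B cell markers went the other way, with sums of 17.5 to 21.8 CPM as control values, 26.1 CPM for overexpressing replicate 1 and 92.6 and 91.1 CPM for replicates 2 and 3, with PAX5 the highest by mean level and VPREB1 at 0 throughout. The monocyte markers VCAN and CD14 had the values given above. The part of these markers in the values of TFPI, F3 and PLAT was not tested. In bulk RNA, fewer cells of a kind and less RNA per cell cannot be told apart.

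**Figure D2:**
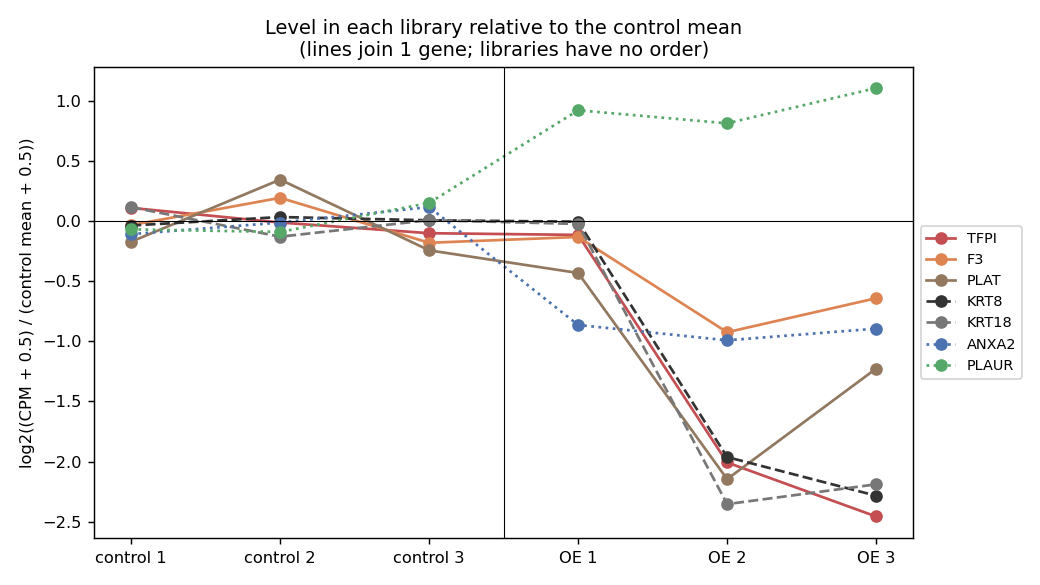
Level of single genes in each library as log2((CPM + 0.5) / (control mean + 0.5)), with solid lines for TFPI, F3 and PLAT, dashed lines for the keratin genes KRT8 and KRT18 and dotted lines for ANXA2 and PLAUR. In overexpressing replicate 1, TFPI, F3 and PLAT lie at -0.12, -0.13 and -0.43, against -0.86 for ANXA2 and 0.92 for PLAUR. The solid and dashed lines drop from there to replicates 2 and 3, whereas ANXA2 and PLAUR are shifted by a like amount in all 3 overexpressing libraries.

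ANXA2 and PLAUR did not have this split. The log2 ratio of overexpressing replicates 2 and 3 over replicate 1 was -0.08 for ANXA2, 0.05 for PLAUR, -0.04 for ANXA5 and -0.13 for S100A10, against -0.64 for F3 and -2.10 for TFPI. With overexpressing replicate 1 alone against the controls, the log2 fold change of ANXA2 was -0.87.

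THBD (ENSG00000178726; chromosome 20, 23045633 to 23049741, minus strand) encodes thrombomodulin, which turns thrombin from fibrin formation to the activation of protein C. The controls had 15.2, 15.0 and 17.6 CPM and the overexpressing libraries 15.9, 15.6 and 16.9 CPM, all within the range of the controls. The log2 fold change was 0.02 with a 95% interval of -0.22 to 0.26 (quasi-likelihood adjusted p = 0.913).

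ANXA5 (ENSG00000164111; chromosome 4, 121667955 to 121697113, minus strand) encodes annexin A5, which covers phosphatidylserine and so withholds the surface on which clotting factors assemble. The control libraries stood at 115, 126 and 118 CPM and the others at 104, 97.6 and 105 CPM. The groups did not overlap, and the fall of 0.23 on the log2 scale was small (SE 0.07, 95% interval -0.38 to -0.07, quasi-likelihood adjusted p = 0.0415). The call was lost in 9 of 17 alternatives, including every one that left out a library except that without control replicate 3, and the direction was downward in all 17.

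**Figure D3:**
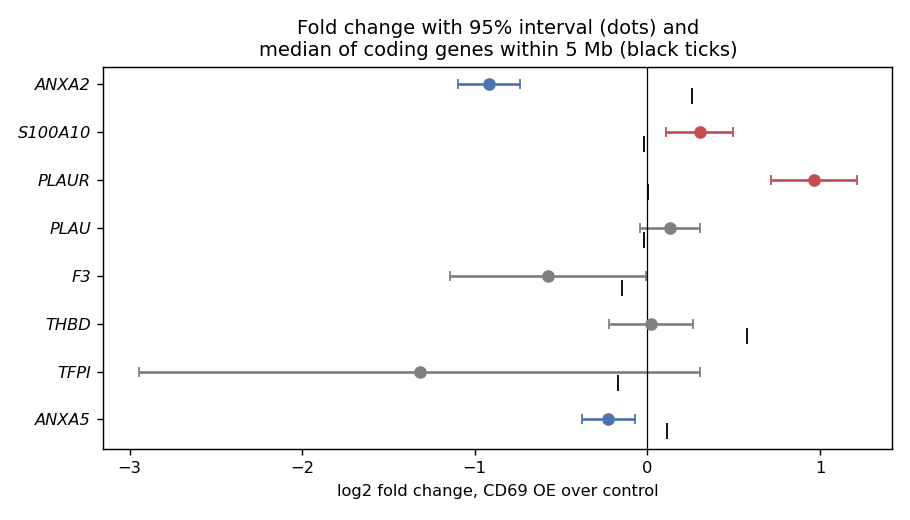
Log2 fold change of each gene with its 95% interval (red called higher, blue called lower, grey not called) and, as a black tick, the median log2 fold change of the coding genes within 5 Mb. ANXA2 at -0.92 lies left of its neighbours' median of 0.26, PLAUR at 0.96 lies right of 0.00, and THBD at 0.02 lies left of 0.58.

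By level per kb of merged exons, the order in the controls was ANXA2, ANXA5, S100A10, PLAU, PLAUR, THBD, F3 and TFPI. ANXA2 had 52.5 ± 4.13, ANXA5 39.5 ± 1.80 and TFPI 0.458 ± 0.04 CPM per kb (SD, n = 3). In the overexpressing libraries ANXA5 (33.7 ± 1.37 CPM per kb) stood above ANXA2 (27.8 ± 1.27 CPM per kb), and the rest kept this order. The order of these 2 depends on the annotation, since the 8824 merged exon bases of ANXA2 include retained introns and lower its level per kb. Other places in the order also rest on merged exon length. By CPM, PLAU (38.0) stood above S100A10 (25.1) in the controls, and PLAUR (49.6) above PLAU (41.6) in the overexpressing libraries. No neighbours in either order overlapped in their ranges over libraries. S100A10 and PLAU had control levels of 16.3 and 12.9 CPM per kb and overexpression levels of 20.1 and 14.1 CPM per kb, and PLAUR went from 5.70 to 11.1 CPM per kb.

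Of the 8 genes, 6 had groups that did not overlap, namely PLAUR, S100A10 and PLAU with the overexpressing libraries above and ANXA2, ANXA5 and TFPI with them below. Over all tested genes 42.3% had groups that did not overlap, 23.0% with the overexpressing libraries above and 19.3% with them below.

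Each gene was set beside the expressed coding genes near it (at least 5 mean CPM). Around ANXA2 the 43 such genes within 5 Mb had 0.26 as their median log2 fold change, with 15 called higher and 1 lower, and ANXA2 was below all 43. Within 10 Mb it was below all 88. The nearest of these on either side were ICE2, 76.3 kb away, which was called lower (log2 fold change -0.54, SE 0.10), and BNIP2, 713 kb away, which was not called (0.12, SE 0.06). Around PLAUR the median of 141 genes was 0.00, and 7 of them had a higher value than PLAUR. Its nearest neighbours ZNF428 and SMG9 were at -0.10 each and not called. Around S100A10, the median of 132 genes was -0.02 and 22 were higher. THEM4 was called lower (-0.50) and S100A11, the next S100 gene, was not called (0.16).

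Around ANXA5, 13 genes had a median of 0.11, and the nearest, MAD2L1 and EXOSC9, were not called. THBD lay where most genes were higher. Of 27 genes within 5 Mb 19 were called higher and none lower, with a median of 0.58, and 24 of the 27 were above THBD. CD93, 36.6 kb from it and named after its value was seen, was called higher (log2 fold change 0.81, SE 0.11). The next genes on that side, NXT1, GZF1, NAPB and CST3, 0.30 to 0.59 Mb away, were not called (0.05, -0.01, 0.24 and -0.12). They too were named after their values were seen. For THBD the median was 0.31 within 2 Mb, 0.24 within 10 Mb and 0.41 over the whole chromosome. Around F3 and TFPI the medians were -0.15 (24 genes) and -0.17 (21 genes).

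**Figure D4:**
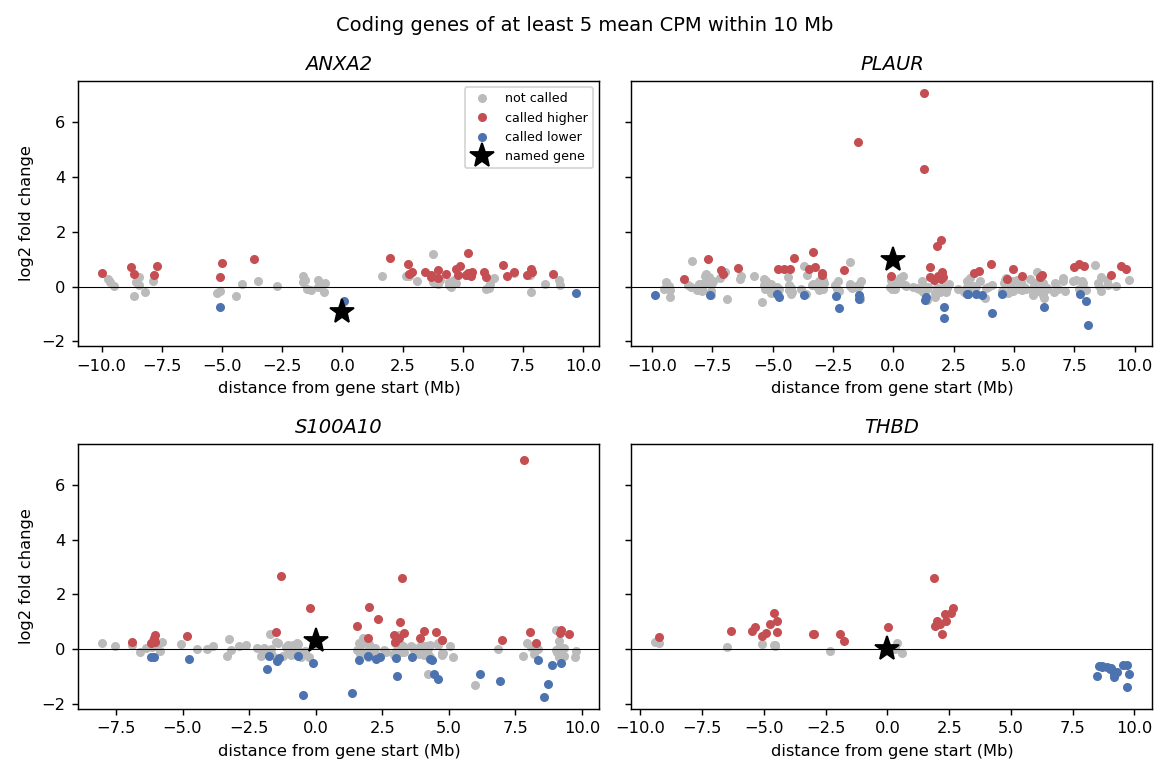
Log2 fold change of the expressed coding genes within 10 Mb of ANXA2, PLAUR, S100A10 and THBD by distance from the start of the gene, with red for called higher, blue for called lower and grey for not called. The star is the gene itself. ANXA2 lies below all of its 88 neighbours, and THBD lies at 0.02 between neighbours that were mostly higher, apart from a block of lower genes beyond 8 Mb on its right.

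The genes most like the called ones over the 6 libraries, by the root mean square difference of log2 CPM about each gene's mean, were TUBB6, PPP1R14C and AKR7A3 for ANXA2 (differences of 0.0423, 0.0462 and 0.0527). For PLAUR they were F8A3, PDE9A and CAPG (0.0364, 0.0479 and 0.0531), for S100A10 BLOC1S3, TSNARE1 and CRTAP (0.0251, 0.0282 and 0.0292), and for ANXA5 LAMTOR3, PAK1IP1 and SMIM13 (0.0296, 0.0325 and 0.0326). F8A3 belongs to a family of near-identical copies, so its count is uncertain. CAPG, an actin-capping protein gene, was the most abundant of these beside PLAUR and went from 473 to 918 CPM.

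Of 72 other tested genes in 8 lists around these proteins, 13 were called higher and 12 lower, or 34.7% against 24.1% of all tested genes, with a median log2 fold change of -0.17 against 0.01. The lists were chosen with earlier results of these data known, and 2 genes stand in 2 lists. Of the 25 calls, 19 held when any 1 library was left out. Those of F2R, LMAN1, MCFD2, PROCR, VKORC1 and ANXA4 did not, and all but that of ANXA4 were lost in at least 4 of 6 such fits (highest quasi-likelihood adjusted p = 0.0584 for ANXA4, without overexpressing replicate 2, and 0.0700 to 0.183 for the others). Part of the counts is also uncertain for ENO1, F8, MRC2, LRP1, MCFD2, PROCR, F2R, XKR8, ATP8B4, P4HB and PDIA3, which have exons over a gene on the opposite strand, and for HSPA8, which holds small RNA genes.

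Among 13 tested genes listed for plasminogen receptors and activation, 2 were called higher and 3 lower (median -0.49). ENO1, whose enzyme enolase also binds plasminogen at the cell surface and which was the most abundant per kb, fell from 3622 ± 488 to 2571 ± 80.6 CPM (SD, n = 3), and HSPA8 fell by 0.53 on the log2 scale. F12, the gene of contact factor XII, went from 27.1 ± 6.33 to 14.4 ± 1.95 CPM (log2 fold change -0.92), and shares 399 exon bases with GRK6 on the opposite strand. MRC2, a collagen receptor that associates with the urokinase receptor, rose by 0.69 on the log2 scale (176 ± 4.81 to 284 ± 20.4 CPM). The list also holds STAT3, a transcription factor gene, which rose by 0.39. PLG, the gene of plasminogen, had 0 counts in every library. LRP1, which clears urokinase with its inhibitor and was named after its values were seen, was not called over all libraries (-0.71). Without overexpressing replicate 1 its log2 fold change was -1.26.

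Of 4 tested fibrinolysis inhibitors 2 were called lower and none higher, and the median was -0.97. SERPINB2, an inhibitor of urokinase, went from 144 ± 8.47 to 73.2 ± 4.06 CPM and SERPINE2 from 100.2 ± 2.89 to 51.4 ± 1.04 CPM (SD, n = 3, log2 fold changes of -0.97 and -0.96, quasi-likelihood adjusted p = 0.000123 and 5.8e-05). In overexpressing replicates 1, 2 and 3, SERPINB2 held 77.2, 73.5 and 69.1 CPM and SERPINE2 50.2, 51.6 and 52.3 CPM, so replicate 1 was as low as the others. SERPINB2 was the most abundant of the list per kb and shares 547 exon bases with SERPINB10 on its strand.

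Of 9 tested genes listed for coagulation factors, their transport and vitamin K, 3 were called higher and 2 lower, and F8 was the only factor gene among these. In the list, 11 of the 19 were under 1 CPM in every library. F8, the gene of factor VIII on chromosome X, rose from 10.3 ± 0.60 to 20.3 ± 1.05 CPM (SD, n = 3). LMAN1, the cargo receptor for factors V and VIII, was at 199.8 CPM in overexpressing replicate 1 and at 365 and 376 CPM in replicates 2 and 3, with control values of 148 to 196 CPM. Its partner MCFD2 fell by 0.33 on the log2 scale. Of the vitamin K genes, VKORC1L1 fell by 0.41 and VKORC1 rose by 0.42. VKORC1 shares exons with other genes on both strands.

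Of 9 tested anticoagulant genes, PROCR, the gene of the protein C receptor, was the only 1 called, and rose from 24.5 ± 2.06 to 31.5 ± 1.24 CPM. Of 5 tested genes listed for thrombin receptors, F2R, the main thrombin receptor, was the only 1 called, and rose from 3.97 ± 0.19 to 5.76 ± 0.46 CPM. That list also holds SELPLG, the gene of the P-selectin ligand, which was its most abundant per kb and was not called (-0.19).

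Of 13 tested genes listed for phosphatidylserine exposure, 3 were called higher and 3 lower. This list also holds 2 disulfide isomerase genes, P4HB among the higher and PDIA3 among the lower. XKR8, a scramblase, went from 16, 37 and 51 counts to 412, 460 and 373 counts (log2 fold change 3.62, SE 0.38). Among the P4-ATPases, ATP8B4 rose from 81.9 ± 13.5 to 276 ± 23.1 CPM and ATP8A1, a flippase, fell from 29.7 ± 5.73 to 15.2 ± 1.43 CPM. PLSCR1 fell by 0.77 on the log2 scale. P4HB, protein disulfide isomerase, which has been studied as a regulator of tissue factor, was the most abundant per kb and rose by 0.64, and PDIA3 fell by 0.60.

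Among the relatives of these proteins, 1 of 8 other tested annexins was called higher and 1 lower. ANXA4 rose by 0.35 on the log2 scale, and ANXA1 fell by 0.77, from 61.8 ± 2.37 to 36.2 ± 8.93 CPM. The fall of ANXA1 was smaller in overexpressing replicate 1 (46.4 CPM) than in replicates 2 and 3 (29.6 and 32.8 CPM), with control values of 59.3 to 64.0 CPM. ANXA6, the most abundant per kb, was not called (0.20). Of 13 other tested S100 genes 2 were called higher and 1 lower. S100A4 rose from 111 ± 21.2 to 199 ± 26.8 CPM and S100B from 1.88 ± 0.28 to 7.97 ± 0.90 CPM, S100A9 fell from 20.8 ± 2.84 to 6.86 ± 1.47 CPM, and the most abundant per kb, S100A11, was not called.

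**Figure D5:**
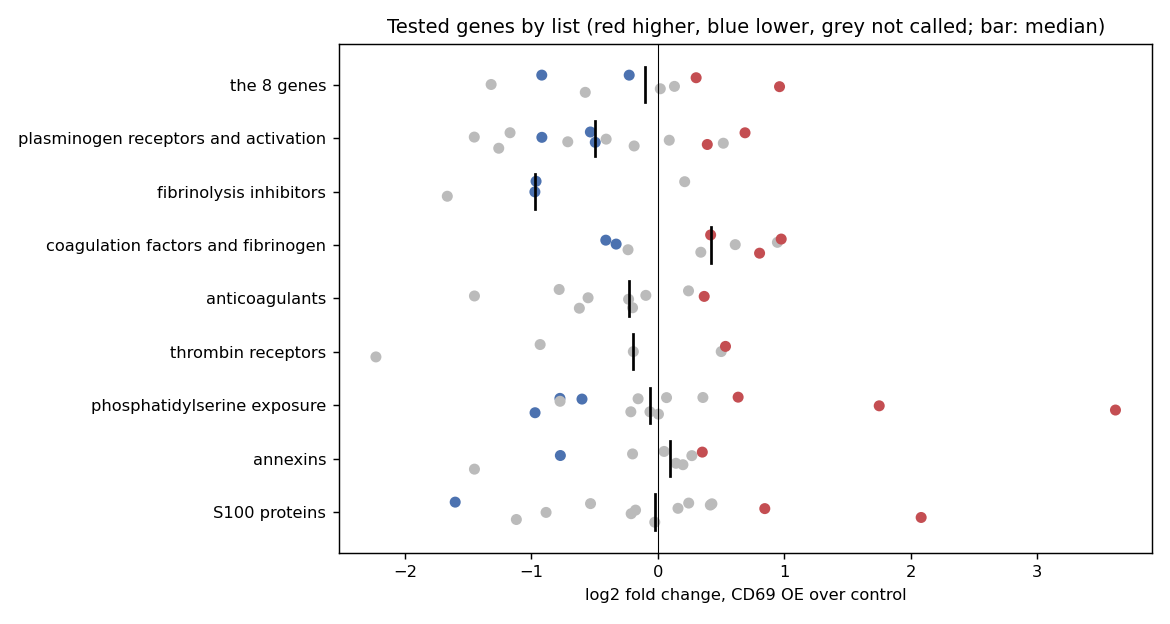
Log2 fold change of every tested gene in the 8 genes and in the lists around them, with red for called higher, blue for called lower, grey for not called and a black bar at the median. The median of the fibrinolysis inhibitors is -0.97, and the highest point is XKR8 at 3.62. The median of the coagulation factor list, which also holds vitamin K and transport genes, is 0.42, the value of VKORC1.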

How the data were processed

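Poly(A) RNA from 6 libraries was sequenced in pairs of 150-base reads with strand-specific preparation, per the labels' protocols. The authors deposited counts per gene for the 6 libraries in a single table, and the submitters' processing notes name FastQC, fastp, STAR, featureCounts (Subread) and GRCh38. Versions, annotation, strand setting and what 1 count stands for are not given in the sources used here. Although the deposited values are whole numbers, they were handled as estimated counts: in each library more genes held exactly 4 counts than 3, so 1 fragment may stand for about 4 counts and the depth may be lower than the totals. Counts divided by 4 were an alternative.

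Symbols came from a gene name table (61757 of 61806 genes matched) and positions and exons from GENCODE release 29 (GRCh38). Genes were kept by filterByExpr, scaled by TMM and compared by the two-sided quasi-likelihood test (edgeR 4.0.16, R 4.3.3), and p-values were adjusted by Benjamini-Hochberg over all 19485 tested genes and a threshold of 0.05. CPM used TMM factors, and CPM per kb divided by merged exon length. Of the log2 ratios between paired genes, each was tested by exact permutation with SciPy 1.17.1. Alternatives were other scalings and filters, DESeq2 1.42.0, limma-voom 3.58.1, the replicate number as a block, glmTreat with a fold of 1.2, counts divided by 4, each library left out, and overexpressing replicate 1 alone.

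The 8 genes and the lists were chosen with earlier results of these data known. The naming rule took CD69, the 8 genes, their pseudogene copies of at least 10 counts, up to 4 called genes per list with the smallest p, the most abundant gene of each list per kb, the highest marker of each marker list, the 3 genes most like each called gene and its nearest expressed coding genes. Named outside this rule, after their values were seen, were F12, LRP1, PLG, ATP8A1, PLSCR1, MPO, PRTN3, ELANE, AZU1, MS4A3, CD14, VCAN, CCR2, GP9, TREML1, VPREB1, KRT18, COL1A2 and EPCAM, and those said to be so in the text. Every pair of libraries differed by more than sampling noise (for counts divided by 4, chi-square over its degrees of freedom was at least 2.36). 1 gene is not reported here and was left out of the lists. Read-level data were not used here.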

Additional observations from a re-analysis of the deposited data

How the results depend on the processing

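Of the 8 genes, 2 were called higher and 2 lower, with 2 and 2 also under RLE and upper-quartile scaling, a filter of 50 counts, DESeq2, counts divided by 4 and the replicate block, and 2 and 3 with limma-voom. The counts were 2 and 1 without scaling factors, 1 and 1 without a filter, 1 and 1 with glmTreat against a fold of 1.2, and 1 and 1 with overexpressing replicate 1 alone (that library is assumed to vary like the controls, which alone give the spread), and they ranged from 1 to 2 higher and 1 to 3 lower when a library was left out. The genes lost were S100A10 and ANXA5, and those gained TFPI (limma-voom, and without overexpressing replicate 1) and F3 (without overexpressing replicate 1). Over all genes, 2767 were higher and 1937 lower. Against a fold of 1.2 these were 1723 and 874, with overexpressing replicate 1 alone 797 and 380, and with a library left out 1783 to 2917 and 1137 to 2226. The log2 fold change of THBD lay between -0.0400 and 0.10 with a library left out (negative without control replicate 1, control replicate 2 or overexpressing replicate 3), was -0.00137 with overexpressing replicate 1 alone, and was not called in any. The replicate numbers were not taken as pairs: same-numbered libraries correlated by 0.08, 0.14 and 0.34 in their deviations from the group means, and 1 of 3 controls, replicate 3, correlated best with its own number. On the second principal component (12.4% of variance), replicate 3 of the control and overexpressing groups lay at -18.3 and -15.4. The other libraries lay at 4.5 to 11. What replicate 3 of both groups may share was not tested. With the replicate block 3194 genes were higher and 2669 lower, against 2767 and 1937 without it. With 3 libraries a group, intervals of genes at a few CPM were wide, as for TFPI.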
